A study of Mus musculus with 6 samples.

Results

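Tcf21 and 8 further genes of the epicardial epithelial-to-mesenchymal transition (EMT) and the cardiac fibroblast lineage were followed in whole mouse hearts at the embryonic stage E13.5. The 9 genes (Tcf21, Snai1, Snai2, Twist1, Zeb1, Zeb2, Pdgfra, Pdgfrb and Postn) were taken by their symbol from the 46983 genes of the deposited tables, and each symbol was found once. They were selected on results of these hearts. Tcf21 was chosen for its lower level in the mutant hearts, and the others for their known roles while earlier results of the same comparison were known. The differences between mutant and wild type hearts in these 9 genes are therefore given as a description: no p-value is given for any of them, and the number that passed a threshold over all genes stands only beside the background share.

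RNA was sequenced from 1 heart per library, with 3 hearts per group, all from C57BL/6 x DBA/2 embryos. The mutant hearts (replicates 1, 5 and 10) carried the TnnT2Cre transgene and floxed Wt1. The control hearts (replicates 2, 3 and 5) are labelled wild type, and the study's methods give them as embryos without Cre in which both Wt1 alleles were floxed, so that both groups share the floxed alleles. Cre was driven by the promoter of Tnnt2, the gene of cardiac troponin T, which is active in cardiomyocytes. The study's methods describe recombination in part of the epicardium too, so the line is not a model of myocardial deletion alone. In whole hearts, fewer cells of a type and less RNA per cell cannot be told apart.

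The epicardium is the mesothelial sheet that covers the heart. Some of its cells undergo EMT: they lose epithelial contacts under transcription factors of the Snail, Zeb and Twist families, enter the myocardium, and give rise to fibroblasts and mural cells. Tcf21 is a basic helix-loop-helix (bHLH) transcription factor required for the cardiac fibroblast lineage. The receptors Pdgfra and Pdgfrb bind platelet-derived growth factors and mark mainly the fibroblast and the mural branch, and Postn encodes periostin, a matrix protein made by fibroblasts and valve mesenchyme.

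Total counts lay between 44244665 and 56373393 per heart. Wild type replicate 5 had the fewest, and in this heart long genes had lower values than in the others (Spearman's rho between a gene's deviation and its exon length −0.55 across 11784 genes, against −0.11 to 0.44 in the other hearts). Red cell markers took 3.2% of the counts in wild type replicate 5 and 3.52% in mutant replicate 10, against 1.13% to 1.55% in the other 4 hearts. The 4 liver markers summed to 830 FPKM (counts scaled to gene length and to the total of the heart) in wild type replicate 3, against at most 21.7 FPKM in any other heart, and the 4 skeletal muscle markers summed to 18.0 FPKM there, against at most 2.15 FPKM. The 6 lung and foregut markers summed to 5.86 FPKM in wild type replicate 5 and 4.18 FPKM in mutant replicate 5, against 0.267 to 1.07 FPKM elsewhere. Tissue beside the heart expresses several of the 9 genes as well, and the part of such RNA in their levels was not tested. All 11 cardiomyocyte markers and all 14 epicardium markers had more than 3 counts in every heart. The targeted gene, Wt1, was at 879 to 2251 counts in the wild type and 921 to 1796 counts in the mutant hearts. The groups overlapped, and a count over the whole gene does not tell recombined from intact alleles.

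The mutant hearts held 46.5% of the wild type level of Tcf21, or 41.9% to 51.7% within 1 standard error. Its gene (ENSMUSG00000045680) lies on chromosome 10 from 22817281 to 22820174 on the minus strand (GENCODE M21, GRCm38), in 2 exon blocks, and shares no exon base with the antisense gene Gm10824 that overlaps it. Wild type replicates 2, 3 and 5 gave 2972, 2496 and 2536 counts. Mutant replicates 1, 5 and 10 gave 1453, 1195 and 1046. Every mutant heart was below every wild type heart, and the gap between the nearest hearts of the groups was wider than the range within the mutant group. In CPM, the count scaled to the size of its library, the means were 51.3 ± 7.23 (SD, n = 3) for wild type and 23.8 ± 3.70 (SD, n = 3) for mutant hearts, with a log2 fold change of −1.10 and a standard error of 0.15. It stayed between −1.23 and −1.01 when each heart was left out in turn, and was −0.93 without wild type replicate 5 and mutant replicate 10 together.

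**Figure D1:**
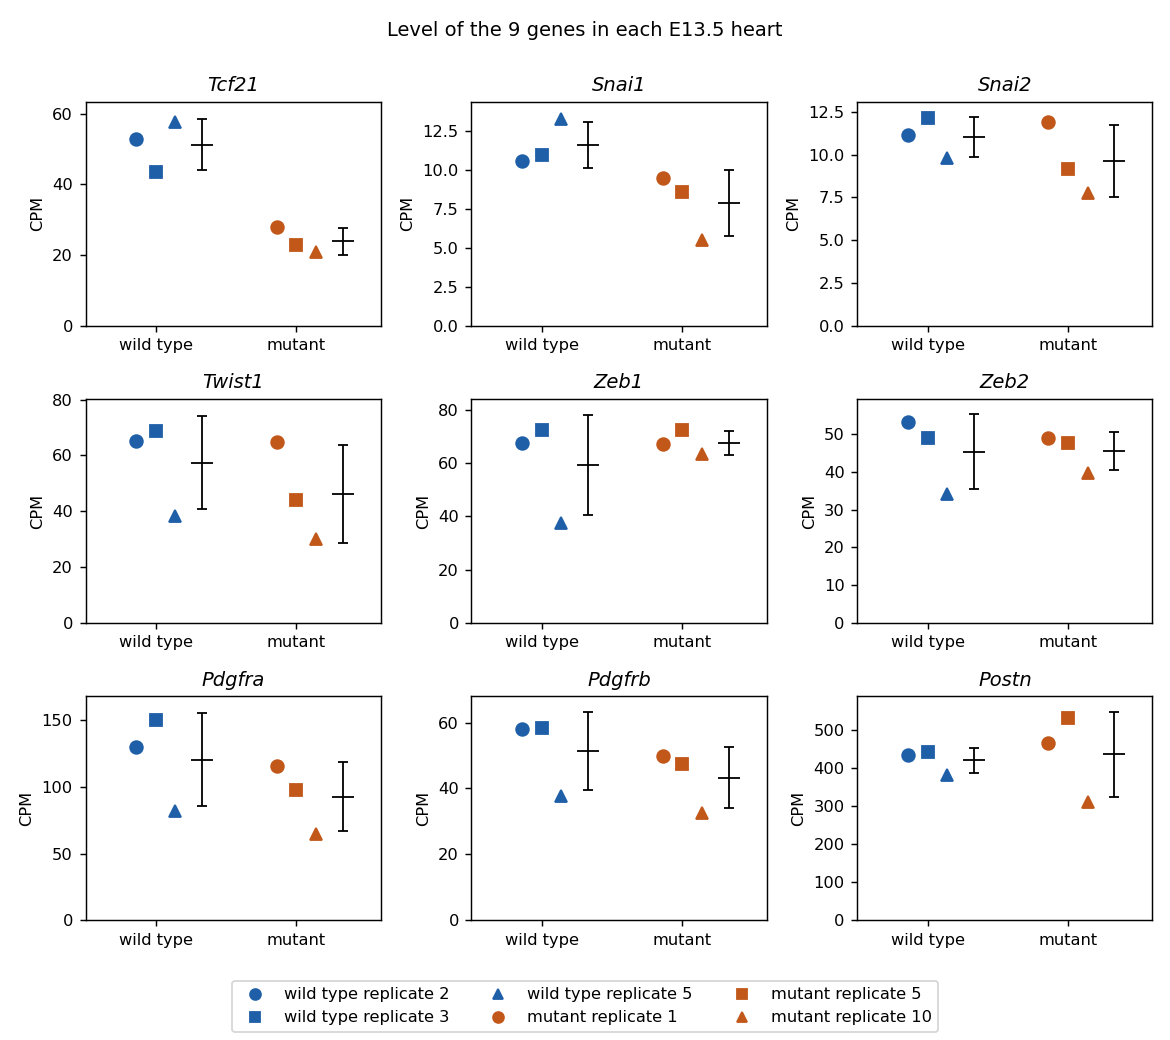
Level of each of the 9 genes in CPM on the vertical axis, with the 3 wild type hearts (blue) and the 3 mutant hearts (orange) as points whose shape marks the replicate, and the mean ± SD of each group as a bar beside them. In Tcf21 and Snai1 the groups do not overlap, and in the other 7 genes they do.

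A ratio of counts within a heart does not depend on how the libraries are scaled, but it does not remove the trend with gene length in wild type replicate 5. For every 100 counts of Zeb1, a repressor of epithelial genes, there were 78.2, 59.9 and 153 counts of Tcf21 in wild type replicates 2, 3 and 5. In mutant replicates 1, 5 and 10 there were 41.7, 31.5 and 32.8. Against Pdgfrb, the ratio was 90.7, 74.5 and 152 counts of Tcf21 per 100 in the wild type hearts and 55.9, 48.1 and 63.8 in the mutant hearts. Neither ratio overlapped between the groups, which for a gene chosen as lower in the mutant hearts is no further evidence. Against Twist1 the groups overlapped, at 80.8, 63.1 and 151 counts of Tcf21 per 100 in wild type hearts and 43.1, 51.8 and 69.5 in mutant hearts. They also overlapped against Pdgfra, at 28.94 in wild type replicate 3 and 32.15 in mutant replicate 10. Of the 8 ratios, 6 were lower in every mutant heart than in any wild type heart, with the same limit from the choice of Tcf21.

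The bases before the start of Tcf21 are shown beside those of Snai1, the other gene whose groups did not overlap, and of Postn, whose groups lay on each other. From RefSeq's promoter windows for GRCm38.p6 (250 bases before to 50 after each start), 10 windows of 6 of the 9 genes were used. The part before the start is printed, 5′ to 3′ on the strand of the gene. For Tcf21 it ends before the start of the gene in GENCODE, which lies further upstream than that of RefSeq, and so holds 219 bases in place of 250. For Postn, the window at the downstream of its RefSeq starts is shown, the one next to the start in GENCODE. Capitals mark the only matches found there to the E-box bound by Snail and Zeb proteins (CAGGTG, on the other strand CACCTG), to the WT1 and EGR type motif GCGTGGGNG (both strands) and to the TATA box TATAAA (both strands).
Tcf21, chr10:22820175-22820393, minus strand: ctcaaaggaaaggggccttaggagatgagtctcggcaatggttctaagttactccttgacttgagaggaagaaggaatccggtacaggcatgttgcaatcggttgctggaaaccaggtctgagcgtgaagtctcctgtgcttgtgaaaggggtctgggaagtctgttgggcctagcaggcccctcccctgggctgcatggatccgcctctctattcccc
Snai1, chr2:167537945-167538194, plus strand: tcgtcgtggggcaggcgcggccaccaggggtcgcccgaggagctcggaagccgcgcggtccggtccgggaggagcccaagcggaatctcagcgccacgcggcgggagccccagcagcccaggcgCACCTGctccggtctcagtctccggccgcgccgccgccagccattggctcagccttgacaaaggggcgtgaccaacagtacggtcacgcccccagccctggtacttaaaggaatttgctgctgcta
Postn, chr3:54360857-54361106, plus strand: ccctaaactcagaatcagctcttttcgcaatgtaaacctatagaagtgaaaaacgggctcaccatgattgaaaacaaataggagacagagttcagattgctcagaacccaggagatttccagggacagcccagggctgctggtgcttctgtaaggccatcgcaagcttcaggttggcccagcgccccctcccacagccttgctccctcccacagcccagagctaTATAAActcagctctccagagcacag
The window of Tcf21 held none of these motifs and no E-box of the general form CANNTG, the kind that bHLH factors bind, which 72.3% of all 32851 windows held. The windows of Twist1, Zeb2 and Postn held no E-box of that form either, while that of Snai1 had 1 and that of Pdgfra 2. Snai1 had 1 Snail and Zeb E-box, with its first base at −126 from the start, and 20.2% of all windows held that motif. It was also the richest of the 3 in G and C, at 70% of the bases of its window, against 53.3% in Tcf21, 53% in the window of Postn shown and a median of 52.7% over all windows. The window of Postn shown had a TATA box with its first base at −26, and 13.6% of all windows held TATAAA. The other window of Postn, at its upstream start, had 40% G and C and no TATAAA. The WT1 and EGR type motif was found in none of the 10 windows and in 1.9% of all windows. A match of letters is a description, and these windows were not tested for binding.

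Among the Snail repressors, which switch off epithelial genes such as Cdh1, Snai1 was lower in mutant hearts and Snai2 overlapped. Snai1 (chromosome 2 from 167538195 to 167542814, plus strand, 3 exon blocks) was at 10.6, 11.0 and 13.3 CPM in the wild type hearts, again in the order of replicates 2, 3 and 5, from 595, 631 and 585 counts. The mutant hearts, in the order of replicates 1, 5 and 10, gave 9.50, 8.58 and 5.48 CPM, from 494, 450 and 276 counts. The groups did not overlap, but the highest mutant heart (9.50 CPM) was close to the lowest wild type heart (10.6 CPM). The log2 fold change was −0.56 with a standard error of 0.21, and −0.26 without wild type replicate 5 and mutant replicate 10, the hearts at either end of the range. Snai2 (chromosome 16 from 14705852 to 14709385, plus strand, 3 exon blocks) had 11.2, 12.2 and 9.82 CPM in wild type and 11.9, 9.18 and 7.77 CPM in mutant hearts. Mutant replicate 1 was above 2 of the wild type hearts, and the log2 fold change was −0.20 (standard error 0.18).

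Twist1, a bHLH factor of mesenchymal cells, lies on chromosome 12 from 33957671 to 33959829 on the plus strand, in 2 exon blocks. It had 65.3, 68.7 and 38.2 CPM in wild type replicates 2, 3 and 5 and 64.8, 43.97 and 29.9 CPM in mutant replicates 1, 5 and 10. One heart of each group was low, and mutant replicate 1 was at the level of the upper wild type hearts. The log2 fold change was −0.31 with a standard error of 0.30, and moved between −0.64 without mutant replicate 1 and −0.08 without mutant replicate 10. Pdgfra (chromosome 5 from 75152292 to 75198215, plus strand, 27 exon blocks) had the same order of hearts. It had 130, 150 and 82.1 CPM in wild type and 116, 97.9 and 64.6 CPM in mutant hearts, with a log2 fold change of −0.38 (standard error 0.26). The exons of Gm42802, on the opposite strand, share 4.55% of its exon bases, and that gene had 0 counts in every heart. Pdgfrb (24 exon blocks) had 58.2, 58.3 and 37.8 CPM in wild type and 50, 47.3 and 32.6 CPM in mutant hearts. Its log2 fold change was −0.25 (standard error 0.21), and −0.43 without wild type replicate 5, which was below 2 of the 3 mutant hearts.

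The Zeb repressors and Postn had overlapping groups with means close to each other. Zeb1 (chromosome 18 from 5591860 to 5775467, plus strand) had 67.4, 72.5 and 37.6 CPM in wild type and 67.0, 72.5 and 63.3 CPM in mutant hearts. Wild type replicate 5 was low, and all other hearts lay between 63.3 and 72.5 CPM. The log2 fold change of 0.19 (standard error 0.22) turned to −0.05 without that heart. Zeb2 (chromosome 2 from 44983632 to 45117395, minus strand) had 53.2, 49 and 34.1 CPM in wild type and 49.02, 47.8 and 39.8 CPM in mutant hearts, with a log2 fold change of 0.00 (standard error 0.17). The exons of Zeb2os, on the opposite strand, share 3.27% of its exon bases, and that gene had at most 40 counts in a heart. Postn (chromosome 3 from 54361109 to 54391037, plus strand, 22 exon blocks) had 435, 442 and 382 CPM in wild type and 465, 531 and 311 CPM in mutant hearts. The mutant hearts lay further apart than the wild type hearts and enclosed all of them, and the log2 fold change was 0.05 (standard error 0.19).

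Over all 9 genes, 6 had a negative and 3 a positive log2 fold change, with a median of −0.25, while the median over the 17473 genes tested was −0.0010. The groups did not overlap in CPM, with the mutant lower, in 2 of the 9 genes (Tcf21 and Snai1), against 4.59% of all genes tested. The groups were apart with the mutant higher in 0 of the 9, against 6.61%. At an adjusted p under 0.05, edgeR's quasi-likelihood test called 0 of the 9 genes and 0% of all genes tested (0 of 17473, with 1002 at an unadjusted p under 0.05). At an unadjusted p under 0.05 it had 2 of the 9 genes lower (background 2.59%) and 0 higher (background 3.14%). DESeq2 called 1 of the 9, Tcf21, against 0.69% of all genes (133 of 19282). Since the genes were picked with this comparison known, nothing is read from these counts.

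**Figure D2:**
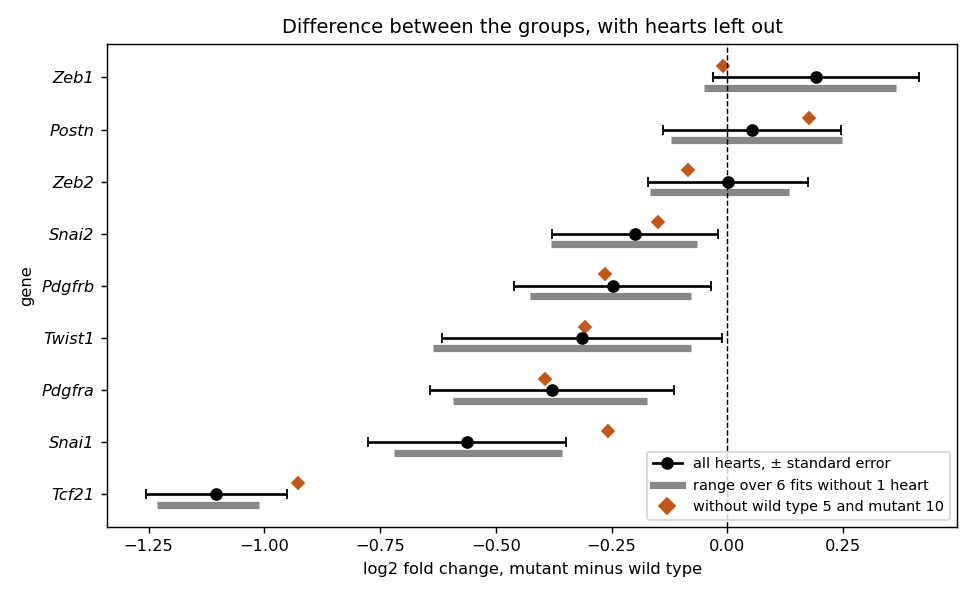
Log2 fold change of the 9 genes (mutant minus wild type, horizontal axis) as black points ± standard error, with the range over the 6 fits that each left out 1 heart (grey bars) and the value without wild type replicate 5 and mutant replicate 10 (orange diamonds). Tcf21 lies between −1.23 and −0.93 in all of them, Snai1 moves to −0.26 without both hearts, and the values of Zeb1, Zeb2 and Postn lie on both sides of 0.

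Some of the 9 genes varied widely between hearts of the same group. The SD of log2 CPM within groups, pooled over both groups, was 0.51 for Twist1, 0.44 for Pdgfra, 0.37 for Zeb1 and 0.35 for Pdgfrb, while the median over all genes tested was 0.22. Among the 1001 genes nearest in level, Twist1 was at percentile 98.9, Pdgfra at 97.3, Zeb1 at 94.7 and Pdgfrb at 92.9. Tcf21 varied less, with an SD of 0.21 at percentile 73.0 of its own level. All 9 genes were below their group mean in mutant replicate 10, by a median of 0.39 on the log2 scale. In wild type replicate 5, 7 of the 9 were below it, from Zeb1 at −0.60 to Postn at −0.13, and Tcf21 (0.18) and Snai1 (0.20) were above it. These were the hearts with the largest share of red cell RNA, and wild type replicate 5 was the one with the trend of gene length, and their part in the pattern was not tested. With both hearts left out, the log2 fold changes were −0.31 for Twist1, −0.39 for Pdgfra, −0.26 for Pdgfrb and −0.01 for Zeb1.

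**Figure D3:**
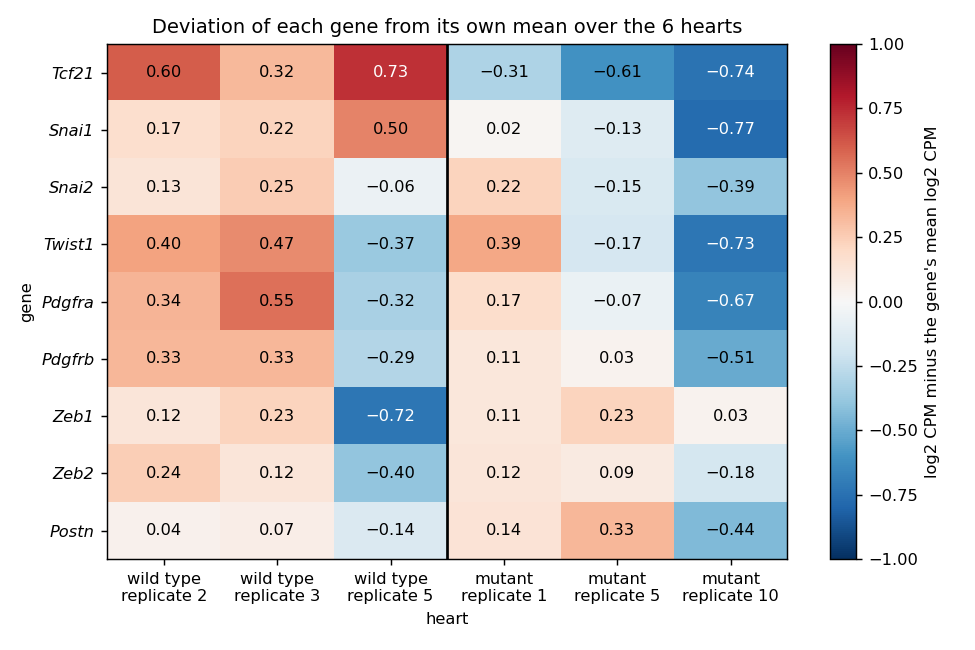
Deviation of each gene from its own mean over the 6 hearts, in log2 CPM, with hearts in columns (wild type left of the line, mutant right), genes in rows, and red for higher and blue for lower. Tcf21 runs from 0.32 to 0.73 in the wild type hearts and from −0.74 to −0.31 in the mutant hearts. Each gene, Tcf21 included, is lowest in wild type replicate 5 or mutant replicate 10.

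The profiles of the genes over the 6 hearts were compared by the root mean square difference of their centred log2 CPM, as a description over 6 libraries that share their depth and composition. Twist1 and Pdgfra were closest to each other (0.11), followed by Pdgfra and Pdgfrb (0.12). Among the 12925 genes compared, with a mean log2 CPM of at least 1, Pdgfra was the nearest of all to Twist1. The nearest of the other 8 genes to Tcf21 was Snai1 (0.31), in place 43 among all genes compared, and the farthest was Zeb1 (0.80).

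The 5 genes nearest to Tcf21 over the 6 hearts were A830082K12Rik (root mean square difference 0.17), Lsp1 (0.17), Shox2 (0.18), Nr2f1 (0.21) and Dpm1 (0.21). All 5 stayed among the nearest 50 when the distance was taken without each heart in turn. Lsp1, an actin-binding protein of leukocytes and other cells, had 75.0, 68.0 and 87.5 CPM in wild type and 38.3, 39.3 and 40.8 CPM in mutant hearts. Shox2, a homeobox factor of the sinus venosus, had 35.5, 38.3 and 41.2 CPM in wild type and 20.2, 16.6 and 19.8 CPM in mutant hearts. In both genes all mutant hearts were below all wild type hearts, a pattern that the choice by likeness to Tcf21 brings with it. Nr2f1, an orphan nuclear receptor, had 40.0, 27.1 and 37.7 CPM in wild type and 24.2, 12.8 and 15.5 CPM in mutant hearts. Exons on the opposite strand share 1.49% (Nr2f1) and 4.26% (Gm46387) of the exon bases of A830082K12Rik, and 4.62% (Rsrc1) of those of Shox2, so reads on these bases are uncertain. Exons of Gm20716 on the same strand cover 11.95% of the exon bases of Dpm1, which had 1.47 to 3.885 CPM.

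**Figure D4:**
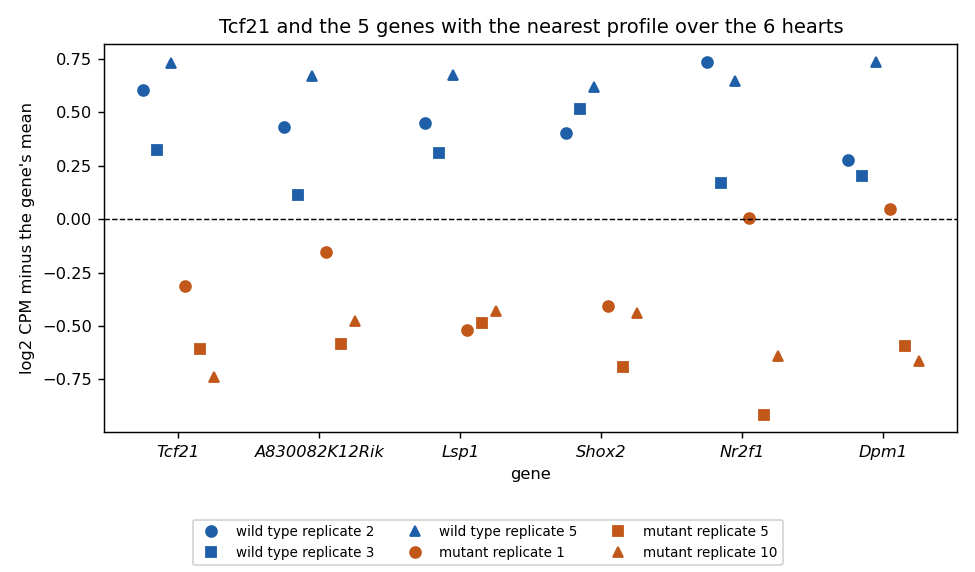
Log2 CPM minus the gene's own mean (vertical axis) in each of the 6 hearts for Tcf21 and the 5 genes with the smallest difference from it. Blue points are wild type hearts, orange points are mutant hearts, and in all 6 genes the blue points lie above the orange ones.

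Levels between the genes were compared per length. In the deposited FPKM, Postn was highest with 189 ± 36.2 FPKM (SD, n = 6 hearts), followed by Pdgfra (39.1 ± 12.3 FPKM), Zeb1 (33.9 ± 7.30 FPKM), Twist1 (32.3 ± 10.9 FPKM) and Tcf21 (30.8 ± 13.2 FPKM). Zeb2 (20.3 ± 3.52 FPKM), Pdgfrb (8.78 ± 2.12 FPKM), Snai1 (6.03 ± 1.68 FPKM) and Snai2 (5.11 ± 0.958 FPKM) were lower. Each gene was tested against its neighbour in this order by the difference of log2 FPKM within a heart (exact sign-flip permutation test over 6 hearts, two-sided, with adjustment over the 8 pairs). Postn exceeded Pdgfra in 6 of 6 hearts, by 2.31 ± 0.34 (SD) on the log2 FPKM scale (exact p = 0.03125, adjusted p = 0.125). Zeb2 exceeded Pdgfrb in 6 of 6 hearts, by 1.23 ± 0.19 (SD) on that scale (exact p = 0.03125, adjusted p = 0.125). The smallest p that 6 hearts allow is 0.03125, and none of the 8 differences passed an adjusted p of 0.05. The order of Pdgfra, Zeb1, Twist1 and Tcf21 was within the spread over all 6 hearts. The differences were 0.11 to 0.17 on the log2 scale, with SDs of 0.42 to 0.63. Both groups are pooled in these SDs, so the SD for Tcf21 includes its difference between the groups. Tcf21 was in place 5 over all hearts, in place 3 in the wild type hearts alone and in place 6, below Zeb2, in the mutant hearts alone, where Zeb1 also passed Pdgfra.

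The order depends on the gene length used. The deposited FPKM imply a length of 1870 bases for Zeb1 and 2246 for Zeb2, while their longest coding transcripts in GENCODE M21 have 5801 and 9124 bases. On the latter scale Zeb2 came last by its mean, with 4.997 ± 0.866 (SD, n = 6) in the units of FPKM. Snai2 was close to it, at 5.13 ± 0.963, and above it in 3 of 6 hearts. Zeb1 had 10.9 ± 2.35. Pdgfrb had 8.77 ± 2.12, so the order of Zeb2 and Pdgfrb tested above was reversed. Twist1 (32.0 ± 10.8) and Tcf21 (21.1 ± 9.05) then came after Postn (134 ± 25.7). Of the 9 genes, Postn alone kept its place on both this scale and that of the union of all exons. The length that the counts are divided by cancels in a comparison of the same gene between hearts. The trend of values with gene length, which differed among the hearts, does not cancel.

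**Figure D5:**
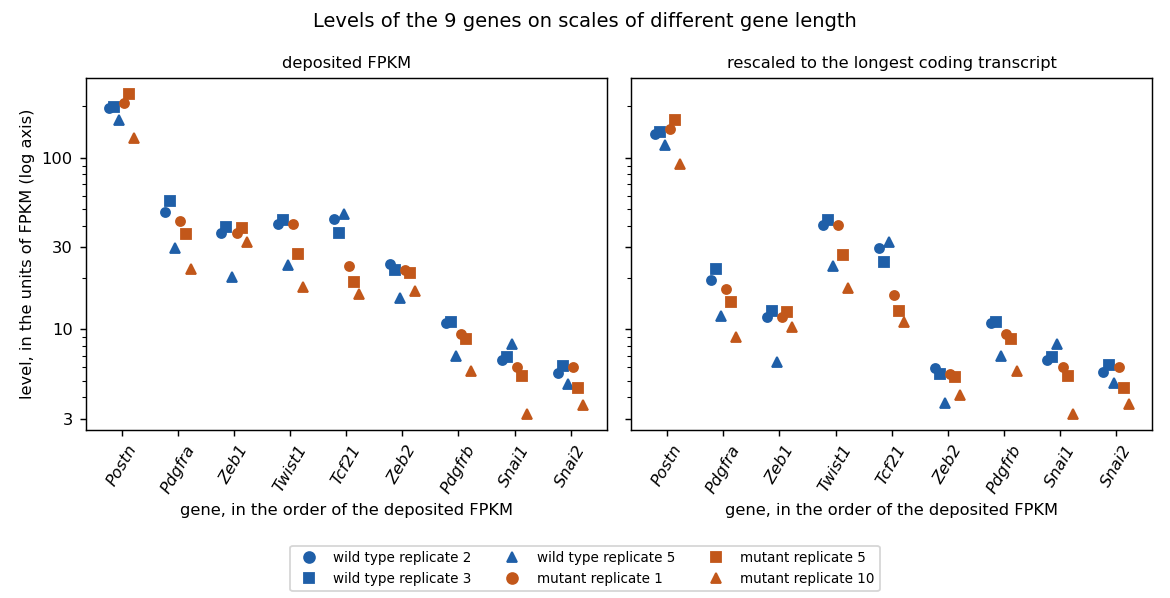
Level of each gene in the units of FPKM (log axis) in the 6 hearts, from the deposited FPKM (left) and with the length of the longest coding transcript (right). Genes are in the order of the deposited FPKM in both panels, with Postn highest in both and Zeb2 moving from a mean of 20.3 to 4.997.

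The partners and signals of the 9 genes were read from the same fit over all genes, in lists written with earlier results of these hearts known. In each of them, edgeR's quasi-likelihood test called 0 genes, so counts at an unadjusted p under 0.05 are given (549 higher and 453 lower among 17473). Of 12 bHLH partners and inhibitors, 2 were lower and 0 higher, with a median log2 fold change of −0.13. These were Id4, an inhibitor of bHLH dimers (−0.49, standard error 0.21), and Msc, a bHLH repressor close to Tcf21 in sequence (−2.08, standard error 0.66). Msc is also a gene of skeletal muscle precursors, and its highest value, 197 counts, was in wild type replicate 3, the heart with the skeletal muscle markers. Without that heart the log2 fold change of Msc was −1.16. Among 14 other transcription factors of mesenchyme, 1 was higher, Snai3 (0.96, standard error 0.35), at no more than 97 counts in a heart, and the median was 0.03. None of the 4 PDGF ligands was at that p. Pdgfa, a ligand of Pdgfra, had a log2 fold change of 0.03 (standard error 0.13), with 2517 to 2747 counts in the 6 hearts. Of 22 genes of EMT signals, 1 was higher, the TGF-beta receptor Tgfbr2 (0.35, standard error 0.13), and the median was 0.03. Bmp2, a ligand of cushion EMT, had −0.40 (standard error 0.19), and the receptor Fgfr1 had −0.23 (standard error 0.11).

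Genes of the epithelial start and of the fibroblast end of the transition had fold changes of both signs. Of the 11 epithelial genes tested of 12 listed, 2 were higher at an unadjusted p under 0.05, the keratins Krt8 and Krt18, and 0 lower. By sign alone, 6 were above and 5 below 0, among the latter Crb3 (−0.48, standard error 0.79) and Cldn1 (−0.22, standard error 0.34). The median of 0.09 ran from −0.40 (mutant replicate 5 left out) to 0.28 (mutant replicate 1 left out), and reached 0.31 in the 4 hearts that exclude wild type replicate 5 and mutant replicate 10. Krt8 had 21.5, 21.9 and 12.8 CPM in wild type and 35.8, 40.3 and 47.2 CPM in mutant hearts, a log2 fold change of 1.13 (standard error 0.21). The groups did not overlap, and its adjusted p was 0.273 from edgeR's quasi-likelihood test and 2.4e-04 from DESeq2. Of 26 fibroblast genes, 4 were higher and 0 lower at an unadjusted p under 0.05, and by sign alone 17 were above and 9 below 0. The median was 0.17, and 0.06 without wild type replicate 5. Mfap4, a microfibril protein gene, had −0.30 (standard error 0.19) and Fap, a surface protease of fibroblasts, −0.47 (standard error 0.48). Lox, which crosslinks collagen, had 55.5, 60.5 and 54.9 CPM in wild type and 70.7, 108 and 98.0 CPM in mutant hearts. Its log2 fold change was 0.69 (standard error 0.16), with an adjusted p of 0.385 from edgeR and 0.0173 from DESeq2. Thy1, a surface protein of fibroblasts, had a log2 fold change of 1.01 (standard error 0.24), with an adjusted p of 0.413 from edgeR and 0.0185 from DESeq2.

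Of 11 mesenchymal genes tested of 12 listed, 1 was higher, the matrix protein gene Sparc (0.32, standard error 0.13), and the median was 0.14. Without wild type replicate 5 this median was −0.02. Of 11 mural cell genes, to whose lineage Pdgfrb belongs, 0 were at an unadjusted p under 0.05 in either direction, with a median of 0.08. Of 12 cushion and valve genes, 1 was higher, Acan (0.95, standard error 0.39), and the median was −0.03. Acan had 41 to 172 counts in a heart, and its groups overlapped. The 14 epicardium markers had 6 higher and 0 lower, and the 6 include Krt8 and Krt18, which are also on the epithelial list. By sign alone, 10 were above and 4 below 0. Those below included Aldh1a2 (−0.26, standard error 0.36), Tbx18 (−0.10, standard error 0.16) and Wt1 (−0.10, standard error 0.31). The median over all 14 markers was 0.52, and 0.05 without wild type replicate 5 and mutant replicate 10. Their summed level was 137 FPKM in wild type replicate 5, and 226 and 263 FPKM in the other wild type hearts, against 187 to 301 FPKM in the mutant hearts. All 6 macrophage markers were higher at an unadjusted p under 0.05, and their summed level was 35.3 to 48.2 FPKM in wild type and 62.7 to 73.2 FPKM in mutant hearts, so that this sum separated the groups in the opposite direction to Tcf21. Its part in the levels of the 9 genes was not tested.

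The marker lists of other cells and tissues were read in the same way. The median log2 fold change was 0.11 over 11 cardiomyocyte markers (0 higher and 1 lower at an unadjusted p under 0.05), and −0.07 without wild type replicate 5. It was 0.28 over 6 endothelium markers (1 higher, 0 lower), and 0.14 without that heart. The 7 neural crest and glia markers had a median of −0.35 with none at that p, and −0.08 without wild type replicate 5. The 5 red cell markers had a median of −0.01 with none at that p, and moved between −0.72 (mutant replicate 10 left out) and 0.36 (wild type replicate 5 left out). Of the 4 liver markers 3 were lower, and the median of −4.45 was 0.18 without wild type replicate 3. Both skeletal muscle markers tested were lower, with a median of −2.85 that was −0.88 without the same heart. The 3 lung and foregut markers tested had a median of −0.55 with none at that p, and 0.90 without wild type replicate 5.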

How the data were processed

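Per the study's methods, the authors trimmed reads, aligned them with STAR to GRCm38 and counted uniquely mapped reads per gene with featureCounts. The labels name HTSeq, and the strand setting is not given in the sources used here. The deposited counts are not normalized. The deposited FPKM values, whose making is not described, equal the count divided by 1 fixed length per gene and the heart's total. The 9 genes, the 18 lists and the tests were chosen with earlier results of these data known. Counts were tested with edgeR 4.0.16 (TMM, filterByExpr with minimum counts of 10 and 15 in total, quasi-likelihood test, two-sided, Benjamini-Hochberg adjustment), which was tried on simulated counts. The standard error is the log2 fold change divided by the root of F. CPM use TMM-scaled libraries, and log2 CPM a prior count of 2. Alternatives were DESeq2 1.42.0, RLE factors, no filter, limma 3.58.1 on log2(FPKM + 1) and log2(FPKM + 0.1), removal of the trend with gene length (loess, span 0.5) and each heart left out. Named were the 9 genes, Wt1, the 5 genes nearest to Tcf21, and from each list the genes called or, with none, up to 2 higher and 2 lower of smallest p, of which the text gives those its results turn on. A count of 3 was taken as the limit of detection, which covers counting error only. Embryos are separate, so p-values cover the spread between embryos and libraries. Other deposited tables repeat these values or hold group means, and were not used. Promoter windows on chromosome 18 (Zeb1 and Pdgfrb) were not used, and Snai2 had no window.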

Additional observations from a re-analysis of the deposited data

How the results depend on the processing

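The number of genes called at an adjusted p under 0.05 was 0 in the main comparison, and 133 with DESeq2, 34 with no filter on low counts, 6 and 2 with the length trend removed (implied and exon union length, the latter added after seeing the data) and 9 without wild type replicate 5 and mutant replicate 10 (also added). With 1 heart left out it ranged from 0 to 44, the 44 without wild type replicate 5. For the genes of the lists it was 7 with DESeq2, 2 with no filter, 1 with the exon union length and 0 to 3 with 1 heart left out. For the 9 genes it was 1 with DESeq2 (Tcf21), against 0.69% of all genes. With no filter it was 1, against 34 over all genes, and with 1 heart left out 0 to 1, against 0 to 44. As the 9 genes were picked with this comparison known, nothing is read from these counts. The cause of these moves was not tested. Tcf21 had a log2 fold change between −1.23 and −0.93 over the 14 other settings, and Snai1, Snai2, Twist1, Pdgfra and Pdgfrb kept a negative sign in all 14, while the sign turned in 2 for Zeb1, 5 for Postn and 10 for Zeb2. In the order of levels, 7 to 9 of the 9 genes kept their place with 1 heart left out, 5 in the mutant hearts alone, 1 with the exon union length and 1 with the longest coding transcript, the last 3 added after seeing the data. No paired analysis was made because the sample labels give replicate numbers but no litter or pairing of embryos.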
